A study of Mus musculus with 8 samples.

Results

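The 7 vomeronasal receptor genes Vmn2r111 to Vmn2r117 were taken by symbol from a table of 27532 mouse genes, as the consecutively numbered genes from Vmn2r111 to Vmn2r117. They are 7 of the 124 genes with a Vmn2r symbol, all 7 lie on chromosome 17, and they include Vmn2r116, the receptor of the male tear peptide ESP1. RNA was measured in bulk by poly(A)-selected, directional, paired-end RNA-seq of the whole vomeronasal organ, the pheromone-sensing organ of the nose, from 8 adult mice, 4 heterozygous for Tex15 and 4 Tex15 knockouts. Each library was labelled with its own animal. The title of the series asks about the role of Tex15, a gene known for transposon silencing in male germ cells, in the diversity of vomeronasal neurons and in the detection of male pheromones.

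The heterozygous group held 1 male, replicate 1, aged 11.4 weeks, and 3 females, of which replicate 2 was aged 14.6 weeks and replicates 3 and 4 were aged 11.9 weeks. The knockout group held 1 female, replicate 1, and 3 males. Knockout replicates 1 to 3 were aged 11.9 weeks and replicate 4 was aged 12.1 weeks. Heterozygous replicates 1 and 2 carry animal numbers of another series than the other 6 animals, and no knockout comes from that series. The last numbers in the titles of these 2 samples differ from each other and from those of the other 6. Among the other 6, knockout replicate 4 has a number of its own and the rest share the same number. The numbers can be read as dates, in spring for the 2 and in autumn of the same year for the 6, although the labels do not say what they mark. Strain and the structure of the Tex15 allele are not given in the sources used here, and the controls themselves carry 1 mutant copy, so no wild-type level is among these data.

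V2R receptors are G protein-coupled receptors with a large extracellular ligand-binding domain. They are made by the basal neurons of the vomeronasal organ, which signal through the G protein Gnao1 and, in general, make a single variable V2R together with a member of the broadly expressed co-receptors Vmn2r1 to Vmn2r7, and in part of the neurons with H2-Mv proteins. The V2Rp group is known for detecting exocrine gland-secreting peptides: Vmn2r116 binds ESP1, which male mice release in tears and which raises sexual receptivity in females, and Vmn2r115 has been reported as a receptor of ESP22, a peptide of juvenile tears. Ligands of the other members are not named here.

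In the GRCm38 build, with the GENCODE M21 annotation, the genes lie in the order of their numbers over 935196 bases, chr17:22544504-23479699. Vmn2r111 (ENSMUSG00000095093) is at chr17:22544504-22573482 on the minus strand, Vmn2r112 (ENSMUSG00000094921) at chr17:22600951-22620842 on the plus strand, and Vmn2r113 (ENSMUSG00000092111) at chr17:22942984-22965658 on the plus strand. Vmn2r114 (ENSMUSG00000091945) is at chr17:23285392-23312537 on the minus strand and Vmn2r115 (ENSMUSG00000091076) at chr17:23343741-23362538 on the plus strand. Vmn2r116 (ENSMUSG00000090966) is at chr17:23384604-23404422 on the plus strand and Vmn2r117 (ENSMUSG00000091407) at chr17:23455173-23479699 on the minus strand. Each has 6 coding exons and a coding sequence of 2568 or 2571 bases. Over the 21 pairs of members the coding sequences were 85.8% to 96.9% identical. Vmn2r113 stood apart, with at most 86.7% identity to any other member, whereas pairs without it were at least 91.4% identical.

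The first coding exon shows how alike the receptors are and where Vmn2r116 can be told from its neighbours. The 150 coding bases 16 to 165, counted from the A of the start codon, are printed 5′ to 3′ on each gene's own strand, with capitals for bases that differ from Vmn2r116. These bases lie at chr17:23384818-23384967 in Vmn2r116, chr17:23479433-23479582 in Vmn2r117, chr17:23343992-23344141 in Vmn2r115, chr17:22573109-22573258 in Vmn2r111 and chr17:22943199-22943348 in Vmn2r113.
Vmn2r116: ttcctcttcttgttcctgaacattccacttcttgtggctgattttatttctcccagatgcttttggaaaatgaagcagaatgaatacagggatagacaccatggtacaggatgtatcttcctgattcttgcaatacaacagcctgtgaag
Vmn2r117: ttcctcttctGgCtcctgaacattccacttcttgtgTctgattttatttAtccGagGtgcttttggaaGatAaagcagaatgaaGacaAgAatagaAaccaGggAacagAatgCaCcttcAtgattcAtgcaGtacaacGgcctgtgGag
Vmn2r115: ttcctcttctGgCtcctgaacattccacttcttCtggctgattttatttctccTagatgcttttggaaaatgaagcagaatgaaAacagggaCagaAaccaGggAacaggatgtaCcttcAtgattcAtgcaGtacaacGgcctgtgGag
Vmn2r111: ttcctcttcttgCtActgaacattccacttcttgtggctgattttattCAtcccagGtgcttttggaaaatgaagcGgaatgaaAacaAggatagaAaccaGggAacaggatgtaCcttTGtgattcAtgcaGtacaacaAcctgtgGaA
Vmn2r113: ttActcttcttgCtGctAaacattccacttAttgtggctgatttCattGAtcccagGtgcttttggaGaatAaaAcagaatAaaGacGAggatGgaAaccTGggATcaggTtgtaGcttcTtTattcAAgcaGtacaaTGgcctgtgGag
In this stretch Vmn2r117 differed from Vmn2r116 at 22 bases, Vmn2r115 at 15, Vmn2r111 at 19 and Vmn2r113 at 32. Vmn2r114 has the same 150 bases as Vmn2r115, and Vmn2r112 differed from Vmn2r116 at 19. Among ungapped stretches of 150 bases inside a coding exon, anywhere in the coding sequence, this one had the most differences from Vmn2r116 summed over the other members. It was chosen for that, so it overstates the distance between the genes. Exact matches over whole annotated exons were rare for most members. All of the 150-base windows of Vmn2r116 exons occurred in no other annotated gene, as did 98.9% of those of Vmn2r111, 99.3% of Vmn2r112, 95.8% of Vmn2r114, 98.1% of Vmn2r115 and 93.0% of Vmn2r117. For Vmn2r113 the share was 88.5%, with 7.21% of its windows also found in Vmn2r-ps128. Values of genes that share windows are uncertain, because the treatment of multi-mapped reads is not given in the sources used here. The percentages count exact matches only, so they do not measure the size of that uncertainty.

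Depth and cell content differed among libraries. Whole reads recovered from the steps of the low TPM values (transcript abundance per length, scaled to a fixed total in each library) came to 17884091 in knockout replicate 1 and to 26415660 in heterozygous replicate 1, the lowest and highest of the 8, and knockout replicate 1 had 2988 genes at 0 against 1287 to 1808 in the others. Tex15 averaged 2.52 ± 0.279 TPM over the heterozygous and 1.09 ± 0.155 TPM over the knockout group (SD, n = 4 each), without overlap, and its limma value of -1.22 (log2) missed the threshold (adjusted p = 0.794; 0.0183 by limma-voom on the recovered reads). The basal neuron markers Gnao1, Tfap2e and Bcl11b were present in every library, with a sum of 18.8 to 52.9 TPM in heterozygous and 28.9 to 43.8 TPM in knockout organs, and 0 of the 3 were called. Mature neuron marker Omp was 66.6 to 943 TPM against 571 to 749 TPM, also not called. Markers of main olfactory neurons (Cnga2, Adcy3, Gnal) summed to 15.6 to 53.8 TPM in heterozygous and 10.37 to 17.9 TPM in knockout organs, with 0 of 3 called, and none of the 3 was at 0 everywhere. Their part in the results was not tested.

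All 7 receptors had lower TPM in every knockout library than in any heterozygous library. Adjusted p-values from limma passed 0.05 for 5 of the 7, Vmn2r111, Vmn2r113, Vmn2r115, Vmn2r116 and Vmn2r117. All 7 had an unadjusted limma p under 0.05, as did 3.1% of all tested genes, 68 of the 100 other tested Vmn2r genes and 12 of the 18 other tested ones on chromosome 17. The 5 fell by 1.98 to 3.45 on the log2 scale relative to the median tested gene, with 0.5 added to each TPM. The size depends on this setting: the changes of the 5 were -1.42 to -2.72 with 1 added and -3.16 to -4.78 with 0.1 added. By limma-voom on the recovered reads they were -3.86 to -5.15. Vmn2r112 and Vmn2r114 did not pass. Of all 20305 genes tested, 0.586% were called in either direction, 0.374% were called lower in the knockout and 0.926% had every knockout library below every heterozygous one. V2R genes as a family stood far above that background: 32% of the 100 other tested Vmn2r genes were called lower and 55% had every knockout library below every heterozygous library. Among the 18 other tested Vmn2r genes of chromosome 17, 22.2% were called lower and 55.6% had non-overlapping groups in that direction. The members' count is thus to be read against a family in which such falls were common. Because these are bulk samples, fewer neurons making a receptor and less of its RNA per neuron cannot be told apart.

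**Figure D1:**
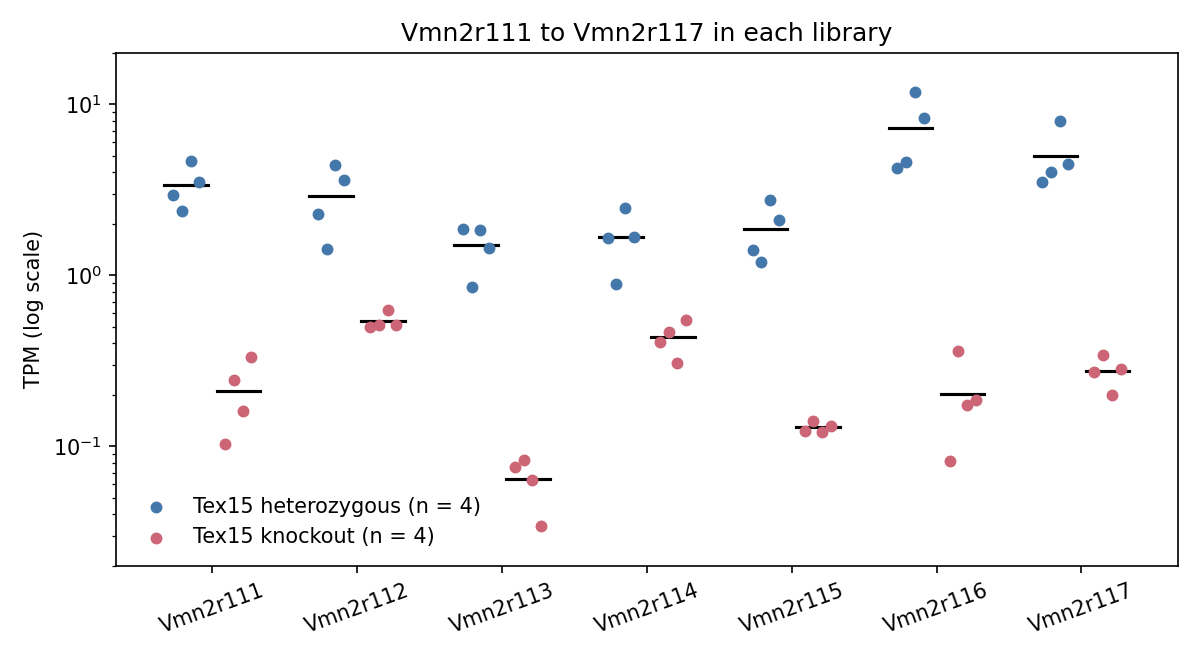
TPM on a log axis for each of the 7 receptors, with a point per library (heterozygous in blue, knockout in red, n = 4 each) and a bar at the group mean. Every knockout point lies below every heterozygous point of the same gene, and the gap is widest for Vmn2r116 and narrowest for Vmn2r114.

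Vmn2r116, the ESP1 receptor, was the most abundant member in all 4 heterozygous libraries, at 4.24, 4.58, 11.8 and 8.39 TPM in replicates 1 to 4. In the knockout libraries it was at 0.0817, 0.363, 0.174 and 0.186 TPM. Knockout replicate 2 was the highest of its group, still far under the lowest heterozygous library. The recovered reads were 527, 499, 818 and 733 in heterozygous and 6, 33, 14 and 15 in knockout libraries, so the transcript was scarce but not absent. The means were 7.24 ± 3.54 and 0.201 ± 0.118 TPM (SD, n = 4 each), a 36.0-fold ratio. The limma change was -3.45 (SE 0.44, log2 of TPM + 0.5, relative to the median gene), with an adjusted p of 0.000419. On that scale low values are compressed, so fitted changes are smaller than the ratios of means. The size of a change thus also depends on a gene's level, which matters when genes or groups of genes are compared. On that scale 5 of the 100 other tested Vmn2r genes fell further than Vmn2r116. For the other members this number was 14 (Vmn2r117), 18 (Vmn2r111), 30 (Vmn2r113), 32 (Vmn2r115), 41 (Vmn2r112) and 49 (Vmn2r114). Such ranks depend on the value added to TPM. With 0.1 added, Vmn2r116 (-4.78) fell further than Vmn2r37 (-4.70) and Vmn2r55 (-4.21), but not further than Vmn2r34 (-4.79). By mean TPM Vmn2r116 ranked 39 of the 124 Vmn2r genes in heterozygous organs and 106 in knockouts.

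Vmn2r117, its neighbour at the end of the group, was second in all 4 heterozygous libraries, at 3.52, 4.03, 8.01 and 4.51 TPM. In the knockouts it was at 0.273, 0.341, 0.199 and 0.285 TPM. Heterozygous replicate 3 was the highest library, and every knockout value of Vmn2r117 was far below the lowest heterozygous one. The mean fell from 5.02 ± 2.03 to 0.274 ± 0.0587 TPM (SD, n = 4 each), an 18.3-fold ratio, with a limma change of -2.84 (SE 0.41, adjusted p = 0.00148).

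Vmn2r115, the receptor reported for ESP22, was less abundant, at 1.41, 1.20, 2.77 and 2.12 TPM in heterozygous libraries. Its knockout values were the most even of the group, at 0.123, 0.141, 0.122 and 0.131 TPM. The lowest heterozygous library lay far above the highest knockout library. The means were 1.87 ± 0.718 and 0.129 ± 0.0089 TPM (SD, n = 4 each), a 14.5-fold ratio, and the limma change was -1.98 (SE 0.40, adjusted p = 0.0406). Other settings with all 8 libraries also ended this call: the adjusted limma p was 0.0541 with a pseudocount of 1, 0.0835 with a filter at a mean TPM of 1 and 0.0852 with sex and a replicate block.

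Vmn2r111, at the other end of the group, had 2.96, 2.38, 4.66 and 3.51 TPM in heterozygous libraries. It had 0.104, 0.245, 0.160 and 0.333 TPM in knockouts. Knockout replicate 4 was the highest and replicate 1 the lowest of its group. The 16.04-fold ratio of the means, 3.38 ± 0.967 and 0.211 ± 0.1004 TPM (SD, n = 4 each), went with a limma change of -2.65 (SE 0.40, adjusted p = 0.00228).

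Vmn2r113, the most diverged member in sequence, was at 1.87, 0.852, 1.83 and 1.45 TPM in heterozygous libraries. It was at 0.0753, 0.0826, 0.0637 and 0.0342 TPM in knockouts, the lowest member in each of those 4 libraries. In reads this was 587, 235, 323 and 321 against 14, 19, 13 and 7. Its annotated exons sum to 19208 bases against 7584 in Vmn2r116, so a read adds less TPM here, and in heterozygous replicate 1 it had the most reads of the 4 members whose reads could be recovered as whole numbers. The ratio of the means, 1.5003 ± 0.471 and 0.0639 ± 0.0213 TPM (SD, n = 4 each), was 23.5-fold and the limma change was -2.07 (SE 0.39, adjusted p = 0.0225). With sex and a replicate block the adjusted limma p was 0.0619, and a filter at a mean TPM of 1 removed Vmn2r113 from the test.

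Vmn2r112 and Vmn2r114 kept the most expression in the knockout. Vmn2r112 had 2.29, 1.42, 4.42 and 3.59 TPM in the controls and 0.501, 0.513, 0.624 and 0.516 TPM in the knockouts. Its groups did not overlap, yet the limma value of -1.78 (SE 0.43) had an adjusted p of 0.160. Vmn2r114 had 1.66, 0.893, 2.47 and 1.68 TPM in the controls and 0.406, 0.469, 0.309 and 0.550 TPM in the knockouts. Here heterozygous replicate 2 came nearest to the knockouts, and the limma value was -1.40 (SE 0.41, adjusted p = 0.520). The ratios of the means were 5.44-fold for Vmn2r112 and 3.87-fold for Vmn2r114, the smallest of the 7. On the recovered reads, which for Vmn2r111, Vmn2r114 and Vmn2r115 are estimates that did not come out whole, limma-voom called all 7 members, with adjusted p-values of 0.0124 for Vmn2r112 and 0.0240 for Vmn2r114, where 0.474% of all genes tested were called lower. After median-ratio scaling of the libraries, limma also called both, at 0.00635 for Vmn2r112 and 0.0396 for Vmn2r114 (adjusted p).

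Leaving out single libraries ended several calls while most of the changes stayed about as large. Without knockout replicate 1, the only female knockout, the sex-adjusted model compares the knockout males with heterozygous replicate 1 alone, which is assumed to vary like the other libraries. Only Vmn2r116 was then called by limma (change -3.15, adjusted p = 0.0383). The changes of Vmn2r111 (-2.68), Vmn2r117 (-2.84) and Vmn2r115 (-2.06) were close to those with all libraries, and their SEs rose to 0.61, 0.62 and 0.60. Without heterozygous replicate 1 the contrast likewise rests on the lone knockout female, and the largest shift among the called members was that of Vmn2r113, to -1.60 (SE 0.58). Omitting heterozygous replicate 1 left Vmn2r111, Vmn2r116 and Vmn2r117 called, and so did omitting knockout replicate 2 and, separately, replicate 3. The share of all tested genes called lower was 0.206% without knockout replicate 1, 0.299% without heterozygous replicate 1, 0.289% without knockout replicate 2 and 0.326% without knockout replicate 3. All 7 stayed lower in the knockout in every one of these fits. Within the 6 animals of the shared number series, fitted with genotype alone, 6 of 7 were called, all but Vmn2r114 (adjusted p = 0.111), against 0.743% of all genes tested there. Those 6 are heterozygous replicates 3 and 4, both female, and all knockouts, mostly male. That fit has no sex term, so sex and genotype are partly confounded in it.

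Neither sex nor its interaction with genotype passed the test for any of the 7 genes. The sex coefficient had adjusted p-values of 1.0 for all 7, beside 0.0492% of all tested genes called and 2.27% at an unadjusted p under 0.05, and none of the 7 was under it. The interaction had adjusted p-values of 0.914 to 0.999 in the same limma framework, where 0.133% of genes were called and 3.05% had an unadjusted p under 0.05, none of the 7 among them. For Vmn2r116, the receptor of a male signal, the heterozygous male had 4.24 TPM and the 3 heterozygous females averaged 8.24 TPM. The knockout female had 0.0817 TPM and the 3 knockout males averaged 0.241 TPM. The as-fitted difference between genotypes was -3.82 (log2) in females and -2.69 in males. With a single heterozygous male and a single knockout female, a difference between sexes was not detectable here.

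The order of levels also differed between genotypes. By mean TPM in heterozygous organs it ran Vmn2r116, Vmn2r117, Vmn2r111, Vmn2r112, Vmn2r115, Vmn2r114, Vmn2r113, and the ranges of all neighbours in that order overlapped. In knockouts it ran Vmn2r112, Vmn2r114, Vmn2r117, Vmn2r111, Vmn2r116, Vmn2r115, Vmn2r113, and the ranges of neighbours overlapped except for the last pair. TPM is per annotated length, and summed exon lengths ran from 7317 bases in Vmn2r111 to 19208 bases in Vmn2r113, so the order depends on that annotation.

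The summed TPM of the 7 genes still depends on annotated lengths, and on reads shared with genes outside the group. It was 17.9, 15.4, 35.9 and 25.2 TPM in heterozygous replicates 1 to 4 and 1.56, 2.16, 1.65 and 2.03 TPM in knockout replicates 1 to 4. The means of 23.6 ± 9.20 and 1.85 ± 0.288 TPM (SD, n = 4 each) differed by -3.61 (log2), or 12.2-fold in geometric mean (two-sided exact permutation test over 70 assignments, p = 0.0286, the smallest this design can give, and 0.0286 after adjustment over the 3 summed measures). Relative to all Vmn2r expression the members fell as well. Their share was 2.11%, 3.02%, 2.53% and 2.48% in heterozygous and 0.291%, 0.272%, 0.210% and 0.239% in knockout libraries, a 10.02-fold difference (exact permutation p = 0.0286).

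The summed group also fell relative to the summed remaining V2R genes of its chromosome, which moved in both directions. The ratio of the 7 genes to the 25 other chromosome 17 Vmn2r genes, all taken as summed TPM, was 0.297, 0.378, 0.320 and 0.322 in heterozygous and 0.0502, 0.0409, 0.0307 and 0.0312 in knockout libraries. The difference was -3.13 (log2, 8.75-fold; exact permutation p = 0.0286, also adjusted). Of the 18 of those genes that were tested, 13 lay below the median gene, with a median change of -1.29 against -2.07 for the 7 members. These medians are of log2(TPM + 0.5), where the size of a change also depends on a gene's level. Vmn2r127, which was called higher, is part of the sum of the other genes. The sum of those 25 genes was 72.9 ± 30.4 TPM against 50.7 ± 14.2 TPM (SD, n = 4 each), a difference of -0.48 that did not pass (exact permutation p = 0.286). Summed expression of all 124 Vmn2r genes was 950 ± 379 against 742 ± 140 TPM, with p = 0.371 in the same exact test. Gnao1, the G protein of the basal neurons, was 20.8 ± 8.25 against 19.7 ± 3.22 TPM, and the ratio of the 7 genes to it was 1.15 ± 0.135 against 0.0947 ± 0.0164. Within the 6 animals of the shared number series, the summed TPM differed by -4.04, the share by -3.32 and the ratio by -3.10 (log2), each at an exact permutation p of 0.0667, the smallest that 6 libraries allow.

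**Figure D2:**
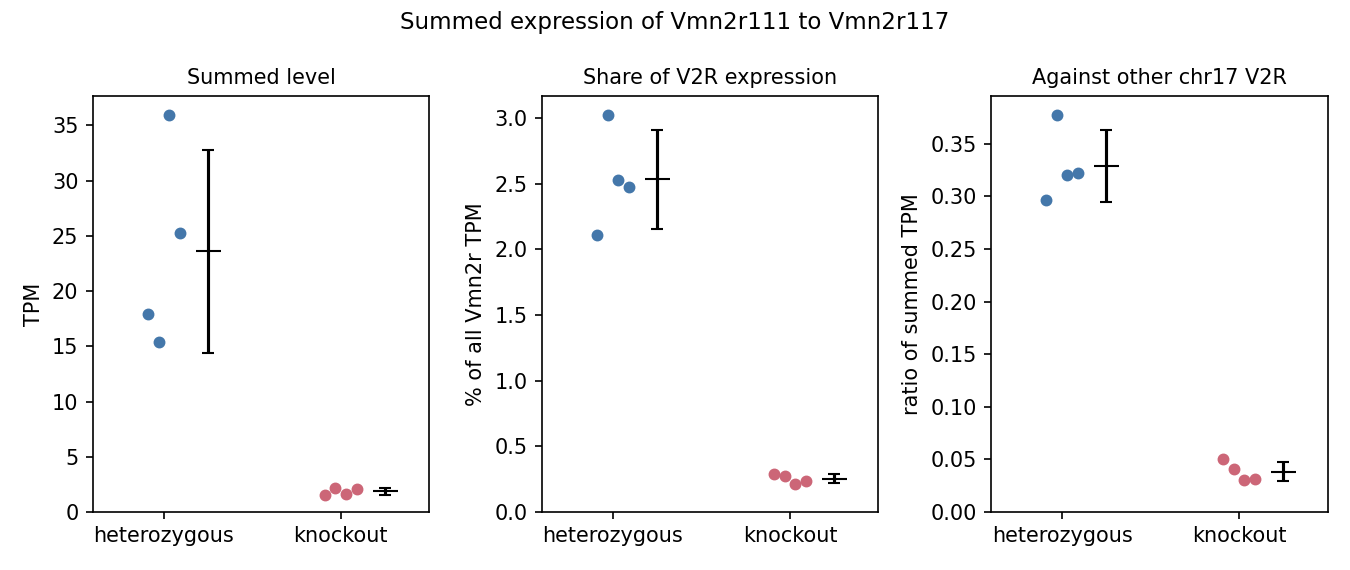
Summed TPM of the 7 receptors, their percentage of all Vmn2r TPM, and the ratio of their sum to that of the other chromosome 17 Vmn2r genes, by library, with mean ± SD (n = 4 each) beside the points. The knockout libraries sit between 1.56 and 2.16 TPM, all below the heterozygous minimum of 15.4 TPM, and the share and the ratio separate the groups in the same direction.

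The composition of what remained differed too. Vmn2r116 made up 23.6%, 29.8%, 32.7% and 33.2% of the summed TPM of the 7 genes in heterozygous libraries and 5.23%, 16.9%, 10.53% and 9.12% in knockouts. Vmn2r112 went the other way, from 12.1% ± 2.10 to 29.8% ± 6.45, and Vmn2r114 from 7.15% ± 1.47 to 23.4% ± 3.85 (SD, n = 4 each). Shares of Vmn2r117 (21.5% to 14.8%) and Vmn2r113 (6.70% to 3.55%) were lower. The Vmn2r113 difference of -3.15 percentage points was -1.92 without heterozygous replicate 1, and -6.95 when recovered reads, estimated for 3 of the 7 genes, replaced TPM. The 5 differences in TPM share, over all 8 libraries, each had an exact permutation p of 0.0286 and 0.04 after adjustment over the 7 genes. Vmn2r111 and Vmn2r115 did not pass (adjusted exact p = 0.143 and 0.133). A larger share of Vmn2r112 and Vmn2r114 is a share of a far smaller sum, and both had lower TPM in every knockout library. When single libraries were left out, the 5 shares kept their direction, but without heterozygous replicate 1 or 2 or any knockout replicate their adjusted exact p-values were 0.05 to 0.10.

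**Figure D3:**
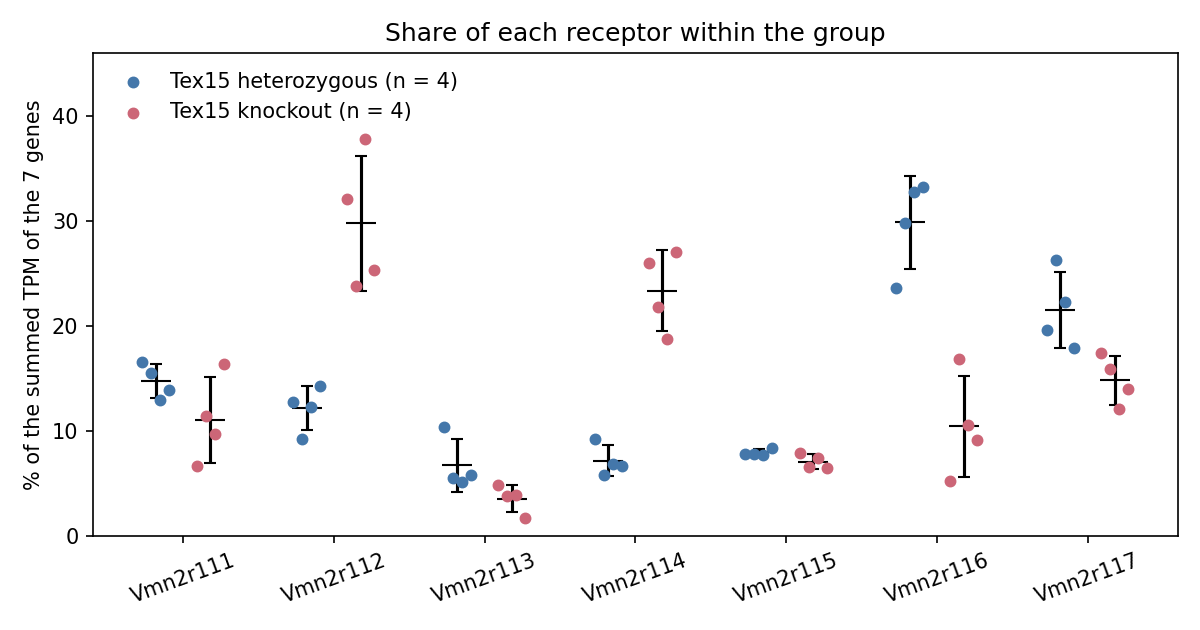
Percentage of the summed TPM of the 7 receptors held by each, by library (points) with mean ± SD (n = 4 each). Vmn2r116 is lower and Vmn2r112 and Vmn2r114 are higher in the knockout libraries, without overlap between the groups.

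Genes lying among the receptors were examined after the data had been seen. Between the start of Vmn2r111 and the end of Vmn2r117 the annotation holds 29 genes, of which 12 besides the members were listed and 7 were tested. The 3 called genes bear V2R pseudogene names, although Vmn2r-ps130 is annotated as protein-coding. Vmn2r-ps128 averaged 3.79 ± 1.43 TPM in the controls and 0.0375 ± 0.0518 TPM in the knockouts (SD, n = 4 each), a limma change of -3.18 (adjusted p = 0.00058). Vmn2r-ps129 was 8.35 ± 4.27 against 0.455 ± 0.157 TPM, with a change of -3.28 (adjusted p = 0.00277). Vmn2r-ps130 was 4.28 ± 2.17 against 0.190 ± 0.0296 TPM, with a change of -2.93 (adjusted p = 0.00434). Without heterozygous replicate 1, the limma change was -2.49 (adjusted p = 0.153) for Vmn2r-ps129 and -2.51 (0.103) for Vmn2r-ps130, and only Vmn2r-ps128 of the 3 kept its call. The interspersed zinc finger genes Zfp945 and Zfp40 had values of -0.02 and 0.00, and the predicted genes Gm20008 and Gm16386 had -0.02 and 0.14 (adjusted p = 1.0 for all 4), with overlapping groups. The nearest tested genes outside the span, Zfp946 and 6330415G19Rik, had values of 0.02 and -0.46, also with overlapping groups and not called.

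**Figure D4:**
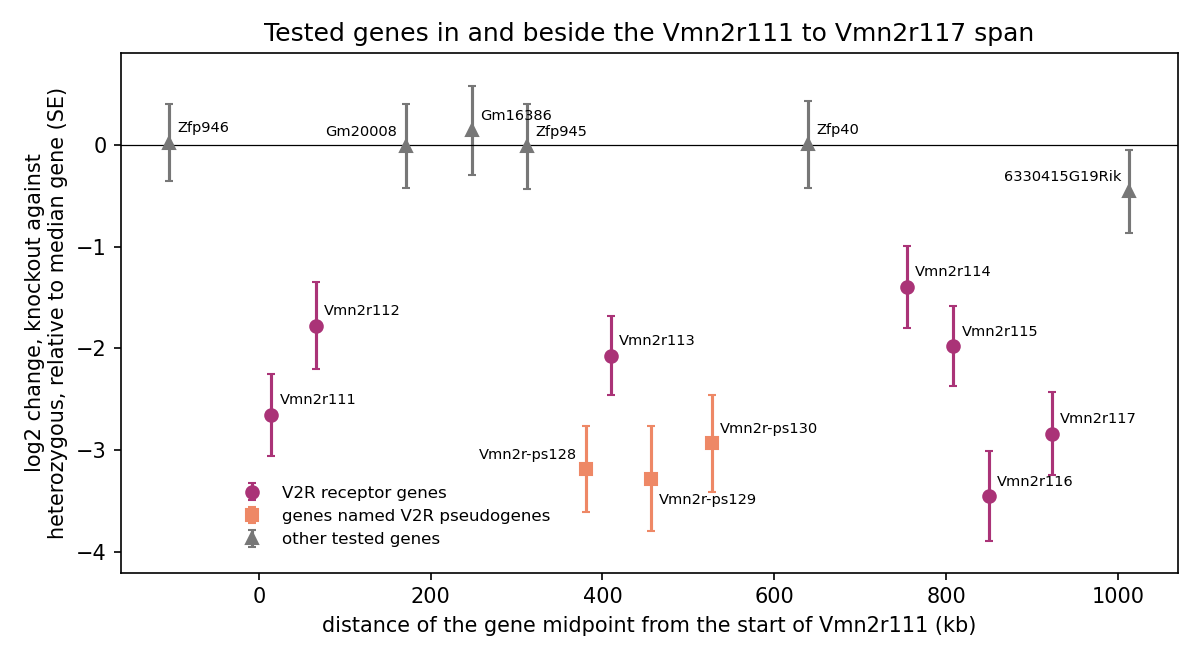
Log2 change of each tested gene in and beside the span, relative to the median tested gene, against the distance of its midpoint from the start of Vmn2r111 in kb; bars are the standard error of the coefficient. Receptors and V2R-named pseudogenes lie between -1.40 and -3.45, and the other genes of the span between -0.02 and 0.14.

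Few partner genes of these receptors passed the test. The only exocrine gland-secreting peptide gene listed here, Esp8, was not called (-1.30, adjusted p = 1.0), and it lies outside the 7 receptors at chr17:40520022-40530421. Of the 7 co-receptors Vmn2r1 to Vmn2r7, 0 were called, with a median of -0.54. Every knockout library was above every heterozygous one for 1 of them, Vmn2r5 (mean 7.43 TPM in heterozygous and 13.99 TPM in knockout organs), and the reverse held for 0. Of 11 genes of the H2-Mv group and B2m, all 11 lay below the median gene, 4 had an unadjusted limma p under 0.05, 2 had every knockout library below every heterozygous one, and 1 was called. The called gene H2-M9, an MHC class Ib protein made with V2Rs, went from 11.01 ± 5.11 to a mean of 1.80 TPM (change -2.44, SE 0.48, adjusted p = 0.0275), beside a median of -0.85 for the 11. Of its alternatives, 5 ended that call: the adjusted limma p was 0.751 without heterozygous replicate 1 (change -1.70), 0.0546 without knockout replicate 1 (-3.18), 0.0593 without knockout replicate 2 (-2.39), 0.168 without a filter on low values (-2.40) and 0.0528 with limma-voom on recovered reads (-2.92). The 9 tested genes of V2R signal transduction had a median of -0.06 and 0 calls, and the 6 genes of basal neuron identity a median of -0.04 and 0 calls. The 7 members had a median of -2.07, the other chromosome 17 Vmn2r genes -1.29 and all other Vmn2r genes -1.36, sizes that also depend on the levels of the genes.

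Among other Vmn2r genes of chromosome 17, Vmn2r96 (-3.24), Vmn2r97 (-2.03), Vmn2r100 (-2.08) and Vmn2r105 (-2.17) were called lower, and Vmn2r127, which went from 1.13 to 9.51 TPM, was called higher (change 2.30, adjusted p = 0.00625). Without heterozygous replicate 1, where the sex-adjusted contrast rests on the knockout female alone, Vmn2r127 was at 1.70 and no longer called by limma (adjusted p = 0.747). In the same fit Vmn2r97 (-2.19), Vmn2r100 (-2.18) and Vmn2r105 (-2.35) were also not called, although their changes were no smaller. Without knockout replicate 1, where 1 heterozygous male carries the contrast, Vmn2r96 (-2.97), Vmn2r97 (-1.88), Vmn2r100 (-1.99) and Vmn2r105 (-1.99) were not called either. Omitting knockout replicate 2 or 3 ended the calls of Vmn2r97, Vmn2r100 and Vmn2r105, with changes of -2.06 to -2.20. Settings with all 8 libraries ended calls as well. Without a filter on low values the adjusted limma p was 0.198 for Vmn2r105, 0.149 for Vmn2r100, 0.1002 for Vmn2r97 and 0.0627 for Vmn2r127. A pseudocount of 1 gave 0.0589 for Vmn2r97 and 0.0547 for Vmn2r105, sex with a replicate block gave 0.0592 for Vmn2r97 and 0.0553 for Vmn2r100, and a filter at a mean TPM of 1 gave 0.0767 for Vmn2r97. Over all 100 other tested Vmn2r genes, 32 were called lower and 6 higher. The smallest adjusted p-values belonged to Vmn2r45 (change -3.87) and Vmn2r36 (-3.73) among the lower and to Vmn2r27 (3.54) and Vmn2r22 (2.79) among the higher. No member of the 7 went up. The genes whose profile over the 8 libraries was nearest to that of Vmn2r116, by root mean square distance of centred log2 values, were Vmn2r37 (0.255), Vmn2r55 (0.263) and Vmn2r34 (0.273), all on chromosome 7. Among the members, Vmn2r117 was nearest, at 0.370, and Vmn2r114 farthest, at 1.14. These distances include the genotype difference itself and describe only these 8 libraries.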

How the data were processed

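TPM values per gene were deposited by the authors for 8 libraries. Per the submitters' processing notes, Trim Galore 0.6.5, cutadapt 5.1, STAR 2.7.11b and deepTools 3.5.5 were used with GRCm38 (mm10). The counting program is not given in the sources used here. Genes with a mean TPM of at least 0.5 were tested as log2(TPM + 0.5) in limma 3.58.1 (R 4.3.3) with genotype and sex as terms, Benjamini-Hochberg adjusted over all genes tested (threshold 0.05). The tests use the coefficient as fitted. Printed changes are relative to the median tested gene, whose shift was 0.19 (log2) as deposited and -0.01 after median-ratio scaling. Sums, shares and ratios were compared by two-sided exact permutation, which took no account of sex or of the animal number series. Whole reads were recovered from TPM steps and GENCODE M21 exon lengths (97.1% of genes matched): 97.6% to 98.3% of low values were whole within 0.02 reads, but Vmn2r111, Vmn2r114 and Vmn2r115 did not come out whole. limma-voom on these reads called 96 genes lower. Same-numbered libraries of the 2 genotypes did not deviate together. Trpc2 was not matched by symbol. Named were all members, Tex15, called genes of each list (at most 5, otherwise the 2 with the smallest adjusted p in each direction) and the 3 profiles nearest to Vmn2r116. Genes within the span were added after the data were seen. A search for 5 motifs around the annotated start sites was run and dropped, because those windows are mostly 5′ UTR. Members and lists were chosen with earlier results of these data known. The fit was tested on simulated data.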

Additional observations from a re-analysis of the deposited data

Results flagged for a closer look

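Of 34 groups of 4 libraries examined, 3 held a library far from its group by Dixon's ratio, and chance alone picks about 1 group in 20. Vmn2r112 had a highest knockout value of 0.624 TPM, in replicate 3. The share of Vmn2r113 in the summed TPM of the 7 genes was highest at 10.401%, in heterozygous replicate 1. The share of Vmn2r115 was highest at 8.40%, in heterozygous replicate 4.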

How the results depend on the processing

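All 7 members were lower in the knockout under every alternative tried in which they were tested, and Vmn2r116 was called in each. The count called lower, 5, became 3 with a filter at a mean TPM of 1, which removed Vmn2r113 from the test and ended the call of Vmn2r115, and 3 with sex and a replicate block, which ended the calls of Vmn2r113 and Vmn2r115, and ranged from 1 to 6 when a library was left out. The replicate block without a sex term called 6. Replicate numbers did not pair the libraries: correlations of same-numbered deviations were -0.06, 0.03, 0.10 and -0.00, and 1 of 4 heterozygous libraries correlated best with its own number. Other counts were 4 with a pseudocount of 1 (without Vmn2r115), 5 with 0.1 or no filter, 6 with Gnao1 scaling or genotype alone, and 7 with median-ratio scaling or limma-voom on recovered reads. The share of all tested genes called lower with all 8 libraries ran from 0.189% without a filter to 0.625% with median-ratio scaling, and was 0.474% for limma-voom. With a library left out it ran from 0.206% (knockout replicate 1) to 0.641% (heterozygous replicate 2, where 6 members were called). With a library left out, the summed TPM differed by -3.79 to -3.38, the share of V2R TPM by -3.41 to -3.24 and the ratio to other chromosome 17 genes by -3.27 to -3.03 (log2). In the 6 animals of the shared number series these were -4.04, -3.32 and -3.10, at the smallest exact p their number allows. There, the share within the group differed by 16.5 percentage points for Vmn2r112, -1.88 for Vmn2r113, 16.6 for Vmn2r114, -22.5 for Vmn2r116 and -5.25 for Vmn2r117, none past the threshold. Leaving out a library gave ranges of 14.9 to 19.6 for Vmn2r112, -3.68 to -1.92 for Vmn2r113, 14.99 to 17.8 for Vmn2r114, -21.6 to -17.7 for Vmn2r116 and -7.90 to -5.10 for Vmn2r117. With reads in place of TPM the share of Vmn2r115 differed by -2.69 and passed (adjusted exact p = 0.0333), but its reads, like those of Vmn2r111 and Vmn2r114, are estimates that did not come out whole. Knockout values rest on few reads, 6 to 33 for Vmn2r116. The causes of these shifts were not tested.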
